A study of Mus musculus with 5 samples.

Results

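*Myc* and 31 genes of ribosome biogenesis were followed in the whole colon of mice injected with NT-3N, which activates the IL-11 receptor. All 32 genes had a higher mean signal 3 hr after the injection than in control colon, by a median of 0.37 on the log2 scale, or 1.29-fold. *Myc* had the largest difference, 1.74-fold on its brightest probe, which ranked above a second *Myc* probe only through the NT-3N arrays. The second probe did not show the difference. The other 31 genes lay between 1.11-fold (*Bop1*) and 1.49-fold (*Ncl*). In limma none of the 32 passed an adjusted p under 0.05, which 0.125% of all features tested passed as higher and 0.0182% as lower. At an unadjusted p under 0.05, 23 of the 32 were higher, against 4.95% of all features.

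Ribosome biogenesis is the making of ribosomes in the nucleolus. RNA polymerase I copies the ribosomal DNA into a long precursor RNA. Small nucleolar ribonucleoprotein particles (snoRNPs) modify this precursor, and large sets of assembly factors cut, fold and pack it with ribosomal proteins into a small and a large subunit. The transcription factor MYC binds DNA with its partner MAX at E-box motifs and is known to raise many genes of this pathway. In the colon, MYC is best known as a WNT target in the proliferating cells of the crypt, and STAT3, which acts downstream of the IL-6 family of cytokines, is also known to act on *Myc*. IL-11 belongs to that family, whose members share the receptor subunit gp130.

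The genes were taken by symbol from a list of *Myc*, 29 ribosome biogenesis factors and 2 enzymes of polyamine synthesis, *Odc1* and *Srm*, and each was represented by its brightest probe. The 32 are among 32917 features tested, of which 17942 had a gene symbol. All 32 were measured well above background on all 5 arrays. Each array held Cy3-labelled RNA from the whole colon of 1 C57BL/B6 mouse, 2 labelled Control and 3 labelled NT-3N 3 hr. NT-3N, which the study describes as a modified human IL-11, was given intravenously, and the dose appears in milligrams in the series text and in micrograms in the methods. The injected mice were 8 weeks old, and their sex was not used here. The control mice are described as untreated, with no vehicle injection, so injection and agonist cannot be told apart. The 5 arrays shared 1 slide and 1 scan time. Between 70.6% and 72.9% of 56605 probes per array were well above background, no spot was saturated, and arrays correlated at 0.980 to 0.992 across features. *Socs3*, a feedback inhibitor of gp130 signalling and the check of the response, was 2.71 ± 0.18 (SE) higher on the log2 scale in NT-3N colon (limma adjusted p = 0.00875).

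Values are log2 of the background-subtracted spot signal after quantile normalization, which gives the arrays the same distribution of values. Levels of different probes cannot be set against each other, so only differences between arrays are compared. Differences are NT-3N minus Control, with the standard error (SE) from limma, which pools the spread between mice over all features, so p-values measure only the spread among these 5 mice. Across the 32917 features, 0.125% were higher and 0.0182% lower at a limma adjusted p under 0.05, 4.95% were higher and 4.67% lower at an unadjusted p under 0.05, and the arrays of the groups did not overlap for 13.5% (NT-3N higher) and 14.8% (NT-3N lower). The median difference over all features was -0.02. The calls at an adjusted p changed with the arrays used. The 41 features called higher became 0 without NT-3N replicate 3, 1 without NT-3N replicate 2 and 71 without NT-3N replicate 1. Calls without a Control array also changed but are not counted here, since such a fit keeps only 1 control. Leaving out an array also leaves fewer arrays from which to estimate the spread.

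Against this background, 23 of the 32 genes (71.9%) were higher and 0 lower at an unadjusted p under 0.05 in limma. In 27 of 32 (84.4%), every NT-3N array lay above both control arrays. At an adjusted p under 0.05, limma called 0 of the 32, and the adjusted p ranged from 0.103 (*Ncl*) to 0.689 (*Rrs1*). The 95% interval of the difference lay above 0 for 23 genes and below 2-fold for 31, the exception being *Myc*, whose upper bound was 1.18 on the log2 scale. The changes were therefore small relative to those of *Socs3*, while the control arrays lay close together for these genes, with a median difference between them of 0.067 and a largest one of 0.22. The 3 NT-3N arrays had a median range of 0.25. A range over 3 arrays tends to exceed a difference between 2 at the same spread, so the 2 measures are not alike.

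**Figure D1:**
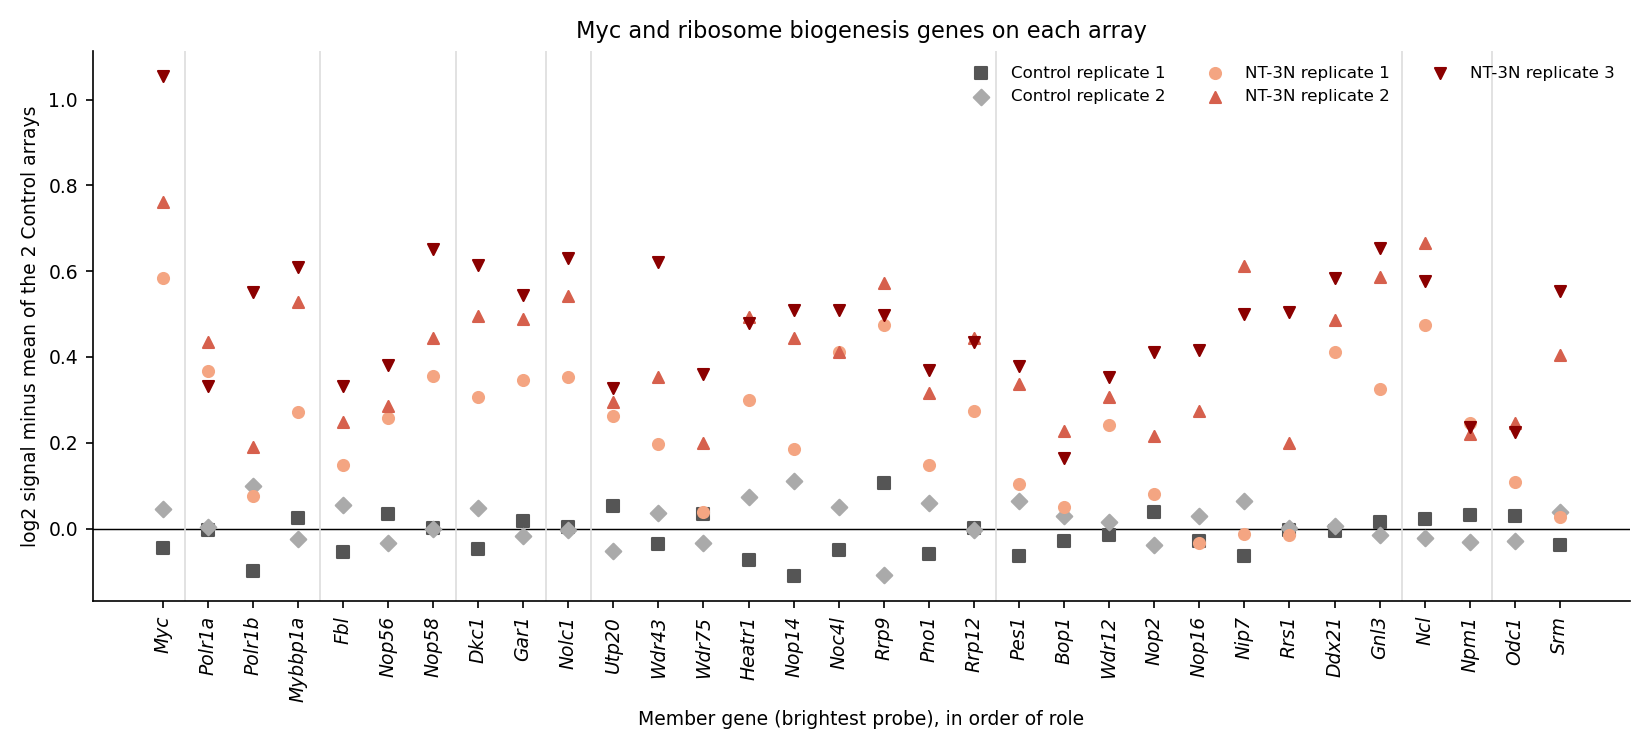
Log2 signal of each gene on each array, as the difference from the mean of the 2 Control arrays (y axis), for the 32 genes in order of role (x axis, vertical lines between roles). Circles and triangles are the 3 NT-3N arrays and squares and diamonds the 2 Control arrays; NT-3N replicate 1 is the lowest NT-3N array for 29 genes, and NT-3N replicates 2 and 3 lie above both controls for all 32.

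The plot of the genes on each array shows that the NT-3N arrays differed among themselves. With 1 mouse per array, differences between mice and between array preparations cannot be told apart. NT-3N replicate 1 was the lowest of the 3 for 29 of the 32 genes and lay above both controls for 27, whereas replicates 2 and 3 lay above both controls for all 32. NT-3N replicate 3 was the highest of the 5 arrays for 23 genes, replicate 2 for 8 and replicate 1 for 1. As a median over the 32 genes, the signal relative to each gene's own mean of 5 arrays was -0.23 and -0.19 on the Control arrays and 0.018, 0.16 and 0.26 on NT-3N replicates 1, 2 and 3. Over all features the same medians stayed between -0.0086 and 0.019. The genes thus moved as a group from array to array within the NT-3N arm as well as between the arms.

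*Myc* encodes the transcription factor at the head of this set. Its brightest probe read 8.51 and 8.59 on the Control arrays and 9.13, 9.31 and 9.61 on the NT-3N arrays. All 3 NT-3N arrays lay above both controls, and the difference was 0.80 ± 0.16 (SE), with a 95% interval of 0.42 to 1.18, a limma adjusted p of 0.197. A second *Myc* probe, listed under the same transcript and also well above background on all 5 arrays, read 8.80 and 8.31 on the Control arrays and 8.48, 8.72 and 8.37 on the NT-3N arrays. There the groups overlapped, and the difference was -0.03 ± 0.19 (limma adjusted p = 0.969). This value is from a fit over all kept probes, in which the brightest probe had a limma adjusted p of 0.191. The NT-3N minus Control difference of the brightest probe exceeded that of the second by 0.83. Probes were ranked by their mean over all 5 arrays. On the Control arrays alone the means were 8.55 (brightest) and 8.56 (second), so the first ranked as brightest only through its NT-3N values. Taken array by array, the gap between the probes was wider on 3 of 3 NT-3N arrays than on both controls. An exact two-sided permutation test gave p = 0.2, the smallest value that 2 against 3 arrays allow. This comparison was chosen after the values were seen, so the test cannot decide whether the probes differ. The mean of both probes gave 0.38 (limma adjusted p = 0.429), so the size of the *Myc* difference rests on the probe.

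**Figure D2:**
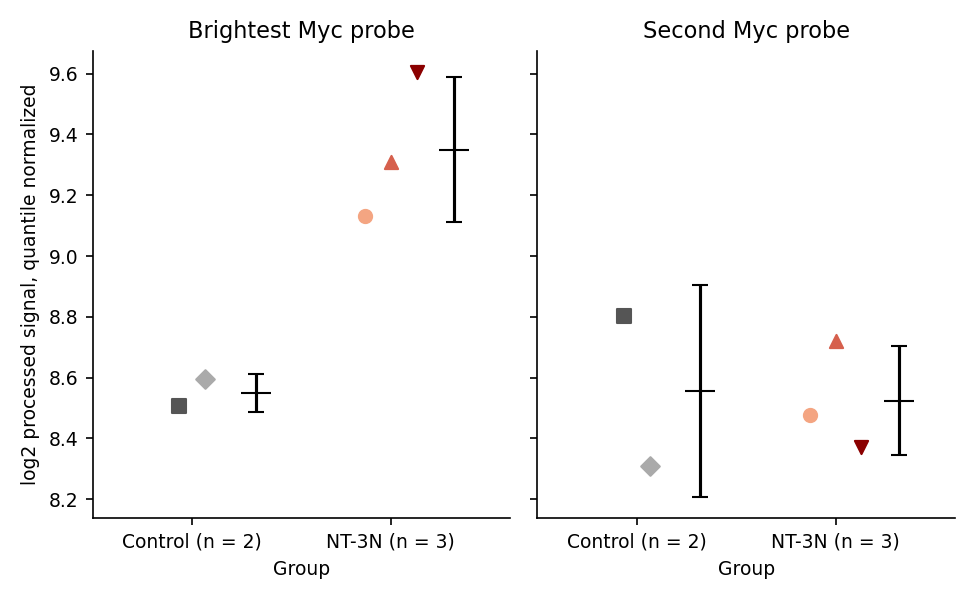
Quantile-normalized log2 processed signal (y axis) of the 2 *Myc* probes in the Control (n = 2) and NT-3N (n = 3) arrays; points are single arrays, with the colours and shapes of the plot of all genes, and bars are mean ± SD. On the brightest probe the NT-3N arrays lie above both controls (9.35 ± 0.24 against 8.55 ± 0.063), and on the second probe the groups overlap (8.52 ± 0.18 against 8.56 ± 0.35).

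The other genes with several probes did not show such a split. Of the 32 genes, 17 had 25 further tested probes, and 24 of these had the sign of the brightest probe, the exception being the second *Myc* probe. The 24 further probes of the other 16 genes were all higher in NT-3N, by 0.14 to 0.57. In the limma fit over all kept probes, 15 of the 25 passed an unadjusted p under 0.05. The share of all kept probes that passed in that fit was not counted, so the 15 have no background to be set against. The median difference of the 25, 0.39, was near that of the brightest probes. Probes of 1 gene were read from the same 5 RNA samples, so they repeat the measurement and not the mice.

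Transcription of ribosomal DNA was represented by the 2 largest subunits of RNA polymerase I, *Polr1a* and *Polr1b*, and by *Mybbp1a*, a nucleolar protein that binds MYB and takes part in the control of this transcription. *Polr1a* read 10.18 and 10.19 on the Control arrays and 10.55, 10.62 and 10.52 on the NT-3N arrays. The arrays of each group lay close together and apart from the other group, with a difference of 0.38 ± 0.091 (limma adjusted p = 0.274). *Mybbp1a* read 12.72 and 12.67 in Control and 12.97, 13.22 and 13.31 in NT-3N, a difference of 0.47 ± 0.12 (limma adjusted p = 0.289). Its groups did not overlap either. *Polr1b* overlapped, since NT-3N replicate 1 (9.13) lay between the controls (8.95 and 9.15), and its difference was 0.27 ± 0.17 (limma adjusted p = 0.652).

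The box C/D snoRNPs guide 2′-O-methylation of ribosomal RNA, and their core holds fibrillarin (*Fbl*), the methyltransferase, with the scaffold proteins *Nop56* and *Nop58*. All 3 were higher at an unadjusted p under 0.05 in limma, by 0.24, 0.31 and 0.48. *Nop58* had 11.39 on both Control arrays and 11.75, 11.84 and 12.05 on the NT-3N arrays (0.48 ± 0.11, limma adjusted p = 0.25). The H/ACA snoRNPs guide pseudouridylation, with dyskerin (*Dkc1*) as the enzyme and *Gar1* as a core partner. *Gar1* read 12.34 and 12.30 in Control and 12.67, 12.81 and 12.86 in NT-3N, a difference of 0.46 ± 0.090 (limma adjusted p = 0.192). *Dkc1* differed by 0.47 ± 0.14 (limma adjusted p = 0.394). *Nolc1*, a phosphoprotein of the nucleolus and Cajal bodies that binds snoRNPs of both kinds, read 11.50 and 11.49 in Control and 11.85, 12.04 and 12.13 in NT-3N (0.51 ± 0.11, limma adjusted p = 0.216). For all 6 snoRNP genes, every NT-3N array lay above both controls.

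The small subunit is built from a large precursor particle, the processome, of which *Utp20*, *Wdr43*, *Wdr75*, *Heatr1*, *Nop14*, *Noc4l* and *Rrp9* are parts, and *Pno1* and *Rrp12* stay with the later precursor. The NT-3N arrays lay above both controls for all 9, the median difference was 0.38, and 8 of 9 passed an unadjusted p under 0.05 in limma. *Rrp9*, a protein of the U3 snoRNP, had the largest difference of the 9, 0.52 ± 0.11 (limma adjusted p = 0.220). It read 9.89 and 9.68 in Control and 10.26, 10.36 and 10.28 in NT-3N. *Noc4l*, a partner of *Nop14*, read 10.97 and 11.07 in Control and 11.43, 11.43 and 11.53 in NT-3N (0.44 ± 0.089, limma adjusted p = 0.202). *Heatr1*, which also acts on RNA polymerase I transcription, read 11.55 and 11.69 in Control and 11.92, 12.11 and 12.10 in NT-3N (0.42 ± 0.10, limma adjusted p = 0.271). *Rrp12*, an export factor of the precursor, read 11.53 and 11.52 in Control and 11.80, 11.97 and 11.96 in NT-3N (0.38 ± 0.092, limma adjusted p = 0.271). These 4 genes had gaps between the groups that exceeded the spread within either. The differences of *Wdr43* (0.39), *Nop14* (0.38), *Utp20* (0.29) and *Pno1* (0.28) were also past the unadjusted threshold. *Wdr75* was not (0.20 ± 0.12, limma adjusted p = 0.637), and its NT-3N replicate 1 and Control replicate 1 had the same value at 2 decimals, 11.27.

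The 9 genes of large subunit assembly gave a more mixed picture, with a median difference of 0.27 and 4 of 9 past an unadjusted p under 0.05 in limma. The largest differences were those of *Gnl3*, the nucleolar GTPase also called nucleostemin, and *Ddx21*, an RNA helicase of ribosomal RNA transcription and processing. *Ddx21* read 10.43 and 10.44 in Control and 10.85, 10.92 and 11.02 in NT-3N (0.49 ± 0.095, limma adjusted p = 0.187). *Gnl3* differed by 0.52 ± 0.13 (limma adjusted p = 0.309). *Pes1*, *Bop1* and *Wdr12* form the PeBoW complex, which is needed to process the precursor of the large subunit RNA. *Pes1* (0.27) and *Wdr12* (0.30) passed the unadjusted threshold, and *Bop1*, the smallest difference of all 32, did not (0.15 ± 0.091, limma adjusted p = 0.655). *Nop2*, an RNA methyltransferase, differed by 0.24 ± 0.11 (limma adjusted p = 0.574). The groups overlapped for *Nip7* (0.37 ± 0.19), *Nop16* (0.22 ± 0.15) and *Rrs1* (0.23 ± 0.16), 3 further assembly factors, and in each NT-3N replicate 1 did not exceed both controls while replicates 2 and 3 did. For *Nip7*, which had the widest NT-3N range of the 32 (0.63), the values were 10.94 and 11.07 in Control and 10.99, 11.62 and 11.50 in NT-3N.

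Nucleolin (*Ncl*) and nucleophosmin (*Npm1*) are the abundant nucleolar proteins that bind precursor RNA and assembling particles. *Ncl* had the smallest p of the 32 and read 13.01 and 12.97 in Control and 13.46, 13.66 and 13.57 in NT-3N. The difference was 0.57 ± 0.085 (95% interval 0.37 to 0.78, limma adjusted p = 0.103), more than the range within either group. *Npm1* differed by less, 0.23 ± 0.066 (limma adjusted p = 0.358), and its 3 NT-3N arrays lay within 0.025 of each other. *Odc1*, the first and rate-limiting enzyme of polyamine synthesis and a long-known MYC target, differed by 0.19 ± 0.081 (limma adjusted p = 0.524), with every NT-3N array above both controls. *Srm*, which makes spermidine, differed by 0.33 ± 0.16 (limma adjusted p = 0.583), and its NT-3N replicate 1 (11.52) lay between the controls (11.46 and 11.53).

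**Figure D3:**
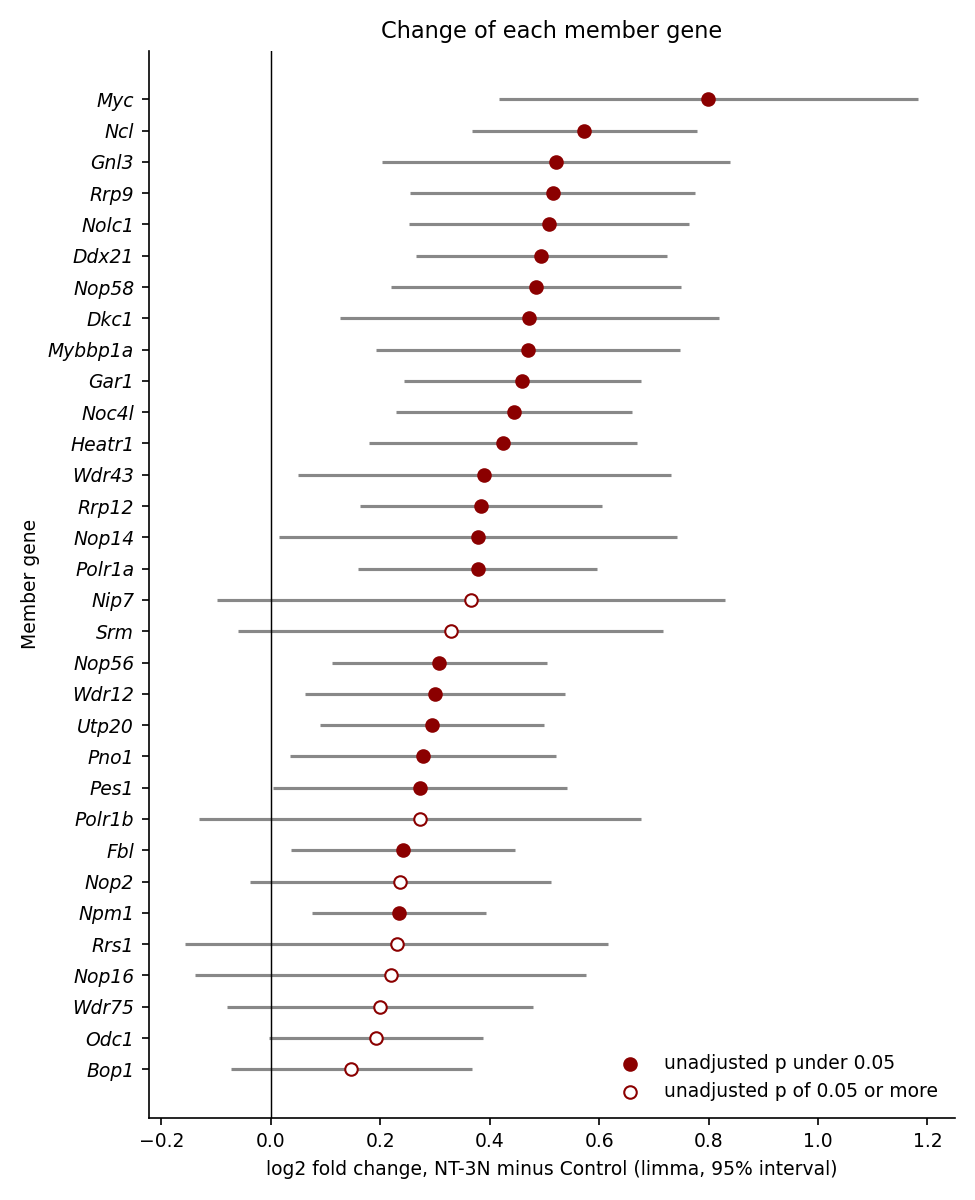
Log2 fold change, NT-3N minus Control (x axis), of the 32 genes (y axis) in order of size, with 95% intervals from limma over 2 Control and 3 NT-3N arrays; filled points have an unadjusted p under 0.05. All 32 points lie right of 0, from 0.15 (*Bop1*) to 0.80 (*Myc*), and 23 intervals exclude 0.

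Because MYC and MAX bind the E-box CACGTG, the promoters of the genes were read for this motif. RefSeq windows of 300 bases on GRCm38.p6, from 250 before to 50 after the gene start, were found for 25 of the 32 genes, and 6 of the 25 genes (24.0%) held CACGTG in a window; the motif reads the same on both strands. The motif occurred in 10.3% of 14136 tested genes with a window and in 7.15% of all 32851 windows. The stretches around the motif are shown on the strand of the gene, 5′ to 3′, with the E-box in capitals, as the sequence that the match rests on in each of the 6.
*Mybbp1a*, chr11:72441347-72441376: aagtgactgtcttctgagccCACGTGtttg
*Nop2*, chr6:125131811-125131840: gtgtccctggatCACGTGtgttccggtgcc
*Pes1*, chr11:3963965-3963994: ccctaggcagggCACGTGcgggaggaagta
*Pno1*, chr11:17211540-17211569: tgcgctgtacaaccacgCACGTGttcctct
*Utp20*, chr10:88826765-88826794: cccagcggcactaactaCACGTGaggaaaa
*Wdr43*, chr17:71616220-71616249: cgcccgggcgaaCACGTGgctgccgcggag
*Pno1* and *Utp20* lie on the minus strand and the other 4 on the plus strand. In 5 of the 6 the E-box lay after the gene start, by 2 to 40 bases, and in *Nop2* it lay before it, at position -60.

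The median difference of the 6 genes with the E-box was 0.29, against 0.42 for the 19 genes whose window had none, and *Myc* itself is among the 7 genes with no window. Among 98 further ribosome biogenesis genes with a window, 19 (19.4%) held the motif, with a median of 0.14 against 0.21 without it. Over all 14136 tested genes with a window the order was the other way, 0.02 with the motif and -0.02 without. The motif TTCNNNGAA, which STAT factors bind, occurred for 3 of the 25 genes, *Noc4l*, *Nop58* and *Polr1b*, and in 8.7% of the 14136 tested genes, with N for any base and both strands read alike. A match is a description of these letters and shows no binding, and a window without one says nothing about sites elsewhere.

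The rest of the pathway was read from lists of 121 further ribosome biogenesis genes, of which 120 were tested. Of these, 106 were higher and 14 lower in NT-3N, 35 passed an unadjusted p under 0.05 in limma as higher and 0 as lower, and 0 passed an adjusted p under 0.05. The median difference was 0.20, smaller than the 0.37 of the 32 genes, with a range of -0.30 to 0.65. No test of the difference between the lists was run. In 49 further genes of large subunit assembly, 18 were higher at an unadjusted p under 0.05, with a median of 0.21, and the smallest p had *Rrp15* (0.59), *Rpf2* (0.52) and *Mak16* (0.46). In 47 further genes of small subunit assembly, 11 were, with a median of 0.19, and the smallest p had *Rcl1* (0.65 ± 0.11, limma adjusted p = 0.142), *Pwp2* (0.49) and *Utp14a* (0.45). Of 11 further snoRNP genes, all 11 had a positive difference and 4 passed the unadjusted threshold, those with the smallest p being *Nhp2* (0.39), a core protein of the H/ACA particle with *Dkc1* and *Gar1*, *Znhit6* (0.36) and *Ruvbl1* (0.22), both assembly factors of snoRNPs. Of 13 further genes of RNA polymerase I and its factors, 9 were higher, 2 of them past the threshold, *Taf1b* (0.37) and *Polr1d* (0.22), with a median of 0.12, which was 0.19 without NT-3N replicate 1.

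The products of the pathway were set beside its factors. All 79 cytosolic ribosomal protein genes tested had a positive difference, but by a median of only 0.087 and at most 0.22, and 2 passed an unadjusted p under 0.05 in limma, *Rpl39* (0.21) and *Rpl35* (0.18). With each array scaled to its 75th percentile in place of quantile normalization, 76 of the 79 were positive, and with scaling to the median 77 were. Without NT-3N replicate 3, 71 were positive and the median was 0.052. The NT-3N arrays lay above both controls for 28 of them, against 27 of the 32 genes of the set. Assembly factors and ribosomal proteins thus had medians of the same sign; the difference between the medians was not tested.

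Partners and antagonists of MYC were read as 1 list, whose median has no single direction with respect to MYC. Of 13 such genes, 4 had a positive difference, the median was -0.11 (-0.07 without NT-3N replicate 3), and the only one past an unadjusted p under 0.05 in limma was *Mycn*, the neural paralogue of *Myc*, which was lower (-0.68 ± 0.27, adjusted p = 0.504). Of 31 other genes that MYC is known to raise, 26 were higher, with a median of 0.15, or 0.098 without Control replicate 1. In that list 7 passed the unadjusted threshold as higher, among them *Apex1* (0.54), a DNA repair enzyme, and *Eif4a1* (0.34), an RNA helicase of translation initiation, and 1 as lower, *Mat2a* (-0.30), which makes S-adenosylmethionine. In 8 further polyamine genes the median was -0.01, with either sign under other settings (-0.04 to 0.03), and 0 passed the unadjusted threshold in either direction in limma, beside the positive differences of *Odc1* and *Srm*. Of 5 genes that MYC is known to lower, 2 had a positive difference and 0 passed the threshold.

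**Figure D4:**
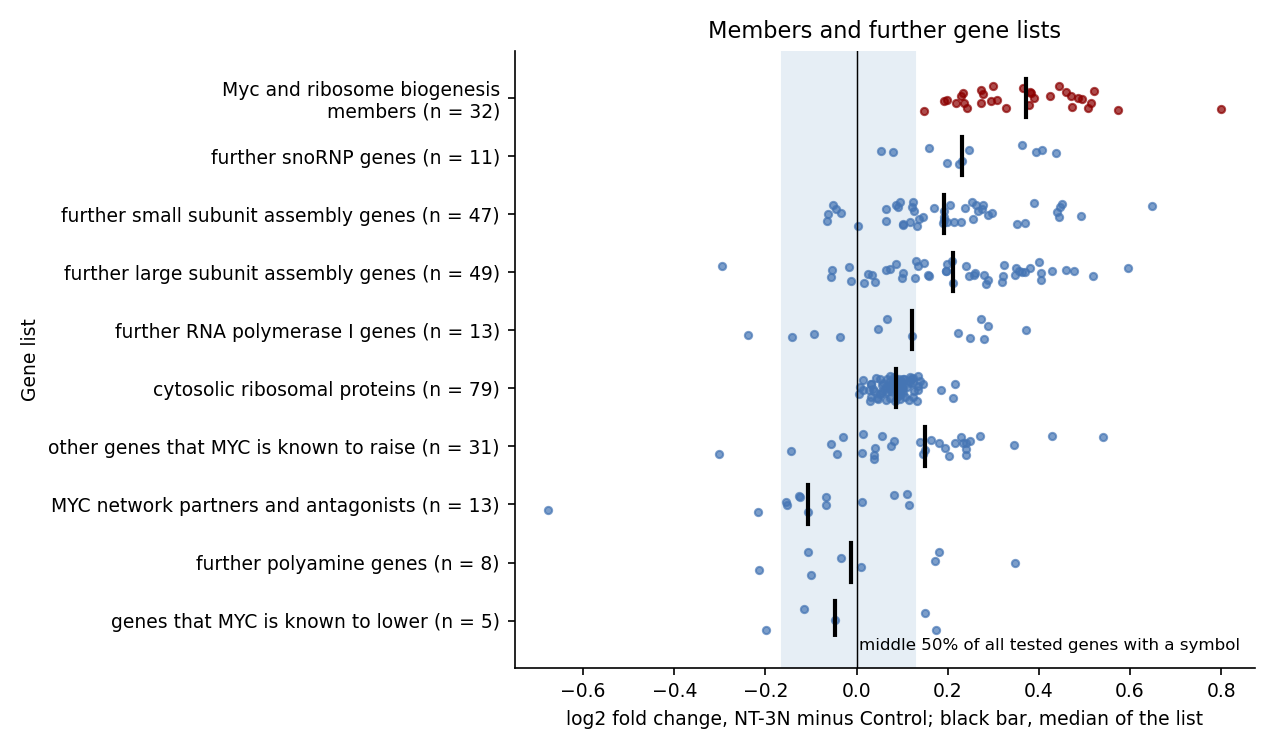
Log2 fold change, NT-3N minus Control (x axis), of single genes (points) in the set of 32 and in 9 further lists (y axis), with the median of each list as a black bar and the middle of the distribution of all 17942 tested genes with a symbol shaded, from -0.16 to 0.13. The 32 genes lie right of 0 with a median of 0.37, the further assembly lists have medians of 0.19 and 0.21, and the ribosomal proteins lie close together near 0.087.

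Whole colon holds epithelium, muscle, stroma and immune cells, and in such samples fewer cells of a type and less RNA per cell cannot be told apart. All 11 epithelial markers tested were well above background on all 5 arrays. Their median difference was -0.03 (-0.09 to 0.0046 over the alternatives), and their summed signal ranged from 1099000 to 1111000 on the Control arrays and from 1007000 to 1124000 on the NT-3N arrays. All 12 markers of proliferating cells had a positive difference, with a median of 0.18, and 1 passed an unadjusted p under 0.05 in limma (*Mcm3*, 0.35). Their summed signal was 40060 to 48160 in Control and 49690 to 51650 in NT-3N. Control replicate 1 was apart from the other 4 arrays, with a median of -0.33 against 0.041, 0.063, 0.092 and 0.074 for Control replicate 2 and NT-3N replicates 1, 2 and 3. Without Control replicate 1 the median difference of these markers fell to 0.04, and without Control replicate 2 it was 0.40.

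The 32 genes did not show this dependence on a control array. Their median difference ranged from 0.29 to 0.45 over all 18 alternative settings run, which include leaving out each array in turn, and all 32 stayed positive in each. All 8 smooth muscle markers were lower in NT-3N, with a median of -0.35 (-0.21 without NT-3N replicate 1), 4 of them at an unadjusted p under 0.05 in limma, and 7 without overlap between the groups. Their summed signal was 469600 to 485000 in Control and 340200 to 431300 in NT-3N. The array lowest in muscle markers was NT-3N replicate 1, which was also the NT-3N array lowest in most of the 32 genes. The 8 markers of B cells and follicles had a median of 1.06, which came from Control replicate 2 and was -0.16 without that array. The lists of fibroblast, T cell, macrophage and neutrophil, neuron and glia, and endothelial markers had medians of 0.05, 0.03, 0.02, -0.13 and 0.11. Single markers differed by up to 1.49 (fibroblast), 1.84 (neuron and glia) and 5.59 (macrophage and neutrophil, 5 of 7 above background on all arrays). The 6 fat cell markers had a median of -0.27, with array medians from -1.60 (NT-3N replicate 3) to 1.44 (Control replicate 1). The part of these marker lists in the differences of the 32 genes was not tested.

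**Figure D5:**
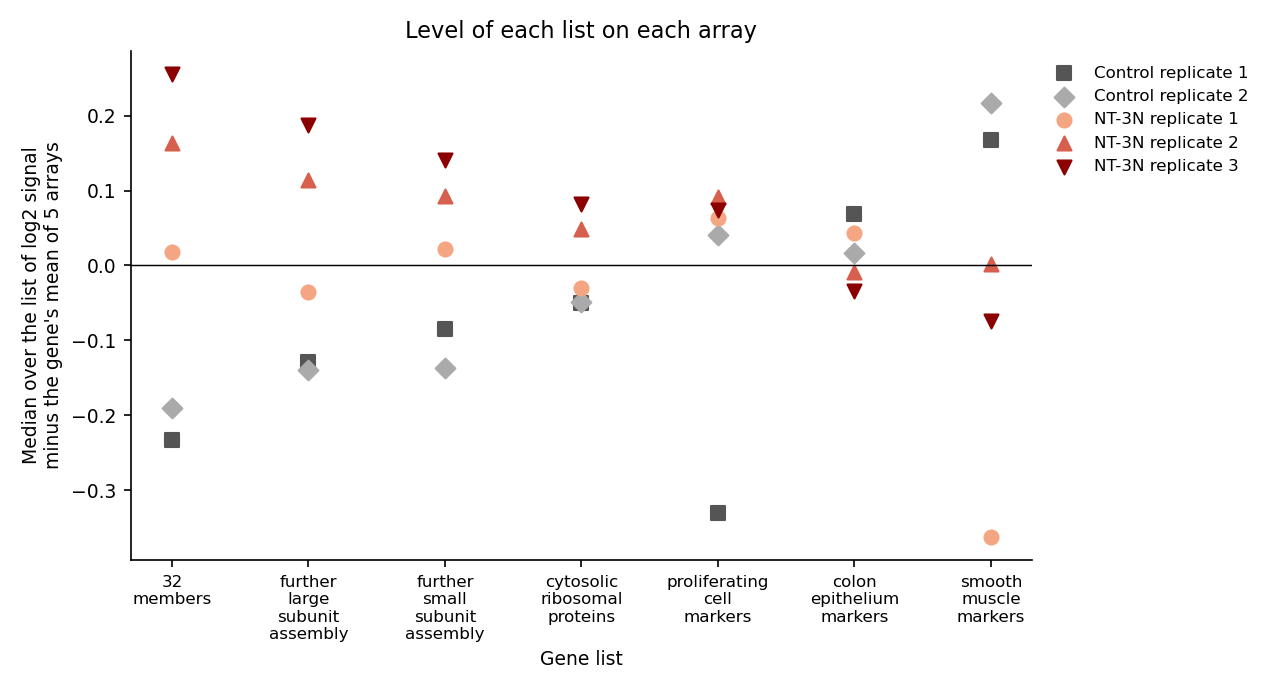
Median over each gene list (x axis) of the log2 signal minus each gene's own mean of 5 arrays (y axis), with 1 point per array. For the 32 genes both Control arrays lie at -0.23 and -0.19 and the NT-3N arrays between 0.018 and 0.26; for the proliferating cell markers Control replicate 1 (-0.33) stands apart from the other 4 arrays, and for the smooth muscle markers NT-3N replicate 1 (-0.36) is lowest.

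At an unadjusted p under 0.05, limma called 23 of the 32 genes higher, against 4.95% of all features. A local-pooled-error test, the kind of test the study's methods name, called 9, against 1.94% of all features. With array quality weights 1 gene, *Ncl*, passed the adjusted threshold in limma (adjusted p = 0.033), where equal weights gave 0.103. The local-pooled-error test called 0 of the 32 at an adjusted p under 0.05.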

How the data were processed

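RNA of 5 colons was hybridised to Agilent SurePrint G3 mouse arrays. The authors read the scans with Feature Extraction 11.0.1.1, and the deposited scanner files hold a background-subtracted, detrended intensity per spot that was not scaled between arrays. A deposited log2 table of 37380 probes, which matched quantile-normalized processed signal (r of at least 0.9999 on each array, column median 8.47), was used as an alternative only.

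Control spots and outlier spots (69 to 184 of 59305 per array) were left out, log2 signals were averaged per probe and quantile-normalized, and probes well above background on at least 2 of 5 arrays were kept. Accessions were matched to symbols through RefSeq (GRCm38.p6), which named 32994 of 56605 probes. The brightest probe, by its mean over all 5 arrays, stood for a gene. Groups were taken from the labels and compared with limma 3.58.1 in R 4.3.3 (lmFit and eBayes with trend, two-sided, Benjamini-Hochberg over 32917 features). Values of further probes of a gene came from a separate fit of the same kind over all kept probes. The methods name a local-pooled-error test; it was run as an alternative, and limma, which also pools the spread over features, as the main test. The scripts used Python 3.11.15 and scipy 1.17.1 and were tested on simulated data. The number of arrays limits the precision.

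Array values are given for *Myc* and the genes with an unadjusted p under 0.05, up to 12, smallest p first; other genes of the set are given by role, and values of *Nip7*, *Polr1b*, *Srm* and *Wdr75* were added after they were seen, because their groups overlap or touch. At most 3 genes per further list are named, and *Socs3* is the response check. The genes and lists were chosen with earlier results of these data known. *Myc* and the genes without a promoter window (*Bop1*, *Fbl*, *Npm1*, *Rrp12*, *Rrs1* and *Srm*) have no sequence here. Alternatives covered scaling, background correction (normexp with an offset of 50), the deposited values, the filter, the variance model, array weights, the test, the replicate number as a block, the rule for several probes, naming and leaving out each array.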

Additional observations from a re-analysis of the deposited data

How the results depend on the processing

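All 32 genes kept a positive difference under each of the 18 alternatives run, 0 were lower at an unadjusted p under 0.05 in any, and the lowest single value was 0.092. The number higher at an unadjusted p under 0.05 was 23 as reported (4.95% of all features). It was 30 without NT-3N replicate 1 (7.58% of all features) and 17 without NT-3N replicate 2 or 3 (3.04% and 3.35%). Under the other limma settings that left out no array it was between 17 (4.63%, without the intensity trend) and 29 (7.28%, with array quality weights). This range does not cover the fits that drop a Control array. Such fits keep only 1 control, so their counts are not given. The local-pooled-error test gave 9 (1.94% of all features), of which 8 were among the 23. Over all features that test called 192 higher and 156 lower at an adjusted p, against 41 and 6 in limma, which gave 2 and 0 without the filter on dim probes or without the intensity trend, 124 and 46 with array quality weights and 0 in either direction with the replicate block. At an adjusted p, array quality weights gave 1 call (*Ncl*, adjusted p = 0.033), and the other 17 alternatives gave 0. *Myc* ranged from 0.38 (mean of both probes) to 0.91. The labels give replicate numbers but no pairing, and same-numbered arrays correlated at 0.13 and 0.036 in their deviations from the group means. With 2 controls the control deviations mirror each other, so these values cannot show whether samples were paired. With the replicate number as a block the median of the 32 genes was 0.29. In that limma fit 17 were higher at an unadjusted p under 0.05 (3.46% of all features) and 0 at an adjusted p. NT-3N replicate 3 has no partner and drops out of that fit. Slide and scan time could not be used as a block, since there was 1 of each. The median SE of the 32 differences was 0.11, which limits what 5 arrays can resolve.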
